A study of Homo sapiens with 22 samples.

Results

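In A673, an established Ewing sarcoma cell line, 2936 long H3K27me3 regions had no H3K27me3 peak in a second line, CHLA10. They were chosen from the A673 replicate 1 list as regions of at least 5000 bp on chromosomes 1 to 22 that overlapped a replicate 2 peak and no peak of either CHLA10 H3K27me3 list. They are called A673-only regions here. The A673 replicate 1 list held 27788 H3K27me3 peaks on these chromosomes, of which 8814 were at least 5000 bp long. Of those, 4623 overlapped both CHLA10 lists (regions of both lines), 1047 overlapped 1 CHLA10 list and 208 were missing from A673 replicate 2. The A673-only regions were thus 34.1% of the 8606 long regions found in both A673 libraries. Without A673 H3K27me3 replicate 1, the rule gave 4863 regions. As a mirror set, 3616 CHLA10 replicate 1 regions of the same minimum length were CHLA10-only by the same rule. The presence of H3K27me3 in A673 and its absence in CHLA10 are the rule, and are described but not tested.

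H3K27me3, trimethylation of lysine 27 on histone H3, is placed by the Polycomb repressive complex with EZH2 and marks silent developmental genes, often in broad domains. H3K27ac sits on the same lysine, marks active promoters and enhancers, and cannot share a histone tail with H3K27me3. H3K4me3 marks promoters and H3K4me1 marks enhancers and promoter flanks. A promoter with both H3K4me3 and H3K27me3 is called bivalent, a state typical of developmental genes in stem cells. Ewing sarcoma is driven by the fusion transcription factor EWS-FLI1, and HOXD13, a homeobox factor of the distal limb, is expressed in these tumours.

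CUT&RUN, in which an antibody directs micrococcal nuclease to chromatin and the released fragments are sequenced, was run on 250000 to 500000 cells per library with paired reads of 25 bp. The series holds 22 libraries, of which 18 came with a peak list, and the 4 IgG libraries came without one. Per line, H3K27me3, H3K4me3 and H3K4me1 (antibody at 1 in 100) and H3K27ac (1 in 50) had 2 libraries each, from cells labelled shNS. HOXD13 (1 in 20) had 1 library per line, without the shNS label, so HOXD13 peaks and marks come from differently labelled cells. A673 was grown in RPMI medium and CHLA10 in IMDM with insulin, transferrin and selenium, so line and medium cannot be told apart. Whether replicates were separate cultures is not stated. With 2 libraries against 2, an exact two-sided permutation test cannot go below p = 0.33, so lines were compared library by library, without a p-value. The lists give no read counts, and depth is unknown. Intervals on shares are exact 95% binomial (Clopper-Pearson) intervals, which cover counting of regions only, and neighbouring regions are not independent.

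The lists differ in how well their replicates match. Of the shorter list's peaks, 90.7% (A673) and 83.8% (CHLA10) were found in the other replicate for H3K4me3, and 72.0% for CHLA10 H3K27ac. The share was 23.5% for A673 H3K27ac and 25.5% for CHLA10 H3K4me1. Within 1 kb of the starts of 28 housekeeping genes, H3K4me3 was present in both libraries at all 28 in each line, while H3K27ac was present in both libraries at 4 in A673 and 17 in CHLA10. Absence of an A673 H3K27ac peak therefore says little here. Genes known as activated by EWS-FLI1 carried H3K4me3 in both libraries at 32 of 32 starts in A673 and 31 in CHLA10. Muscle genes did so at 3 and 2 of 27, haematopoietic and endothelial genes at 12 and 10 of 35, and epithelial genes at 11 and 8 of 35. Over all genes the share was 64.4% in A673 and 64.0% in CHLA10. H3K27ac in both libraries was at 1 (A673) and 9 (CHLA10) of the 32 EWS-FLI1 genes. In the same order it was at 0 and 1 muscle, 2 and 0 haematopoietic and endothelial, and 2 and 3 epithelial genes. Over all genes that share was 5.51% and 16.4%.

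Some member promoters are printed because the results turn on their genes. PRRX1 and SOX2 had H3K4me3 peaks that ranked differently in the lines, and NKX2-1 starts in the longest region. ZNF608 and PDE3A had CHLA10 H3K27ac at the start used. FOXP2 and NHLH2 had H3K4me3 at the start used in 1 line only. Each printed promoter runs 5′ to 3′ on the gene's strand, from 250 bases before to 50 after the first RefSeq start listed (GRCh38.p14). The windows are 300 bases long, with every CpG in capitals. Other listed starts of a gene were not read for marks or CpG. The positions are chr1:170663881-170664180 (plus strand) for PRRX1, chr14:36520183-36520482 (minus) for NKX2-1, chr3:181711675-181711974 (plus) for SOX2, chr5:124748775-124749074 (minus) for ZNF608, chr12:20571829-20572128 (plus) for PDE3A, chr7:114414565-114414864 (plus) for FOXP2 and chr1:115841077-115841376 (minus) for NHLH2.
PRRX1: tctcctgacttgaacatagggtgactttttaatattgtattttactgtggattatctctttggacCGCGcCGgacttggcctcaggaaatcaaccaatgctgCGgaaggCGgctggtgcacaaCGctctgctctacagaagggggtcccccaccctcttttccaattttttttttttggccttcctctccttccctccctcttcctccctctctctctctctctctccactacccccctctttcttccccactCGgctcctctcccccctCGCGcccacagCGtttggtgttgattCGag
NKX2-1: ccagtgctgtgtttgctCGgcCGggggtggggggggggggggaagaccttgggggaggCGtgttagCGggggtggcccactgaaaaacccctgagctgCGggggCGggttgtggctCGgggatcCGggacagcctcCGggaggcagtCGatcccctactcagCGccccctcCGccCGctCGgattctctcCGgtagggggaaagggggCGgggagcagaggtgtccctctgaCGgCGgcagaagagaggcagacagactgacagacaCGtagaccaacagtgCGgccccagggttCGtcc
SOX2: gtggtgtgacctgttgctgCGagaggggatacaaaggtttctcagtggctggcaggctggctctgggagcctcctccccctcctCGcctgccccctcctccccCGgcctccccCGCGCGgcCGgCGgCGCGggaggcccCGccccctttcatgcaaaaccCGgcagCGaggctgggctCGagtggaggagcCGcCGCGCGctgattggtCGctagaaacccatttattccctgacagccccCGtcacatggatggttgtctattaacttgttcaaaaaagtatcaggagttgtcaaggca
ZNF608: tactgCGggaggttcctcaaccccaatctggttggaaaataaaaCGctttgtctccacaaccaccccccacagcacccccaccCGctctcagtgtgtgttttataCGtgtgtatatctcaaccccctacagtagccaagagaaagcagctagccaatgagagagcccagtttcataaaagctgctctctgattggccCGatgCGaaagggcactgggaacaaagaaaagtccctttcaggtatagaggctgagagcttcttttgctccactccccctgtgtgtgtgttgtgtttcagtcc
PDE3A: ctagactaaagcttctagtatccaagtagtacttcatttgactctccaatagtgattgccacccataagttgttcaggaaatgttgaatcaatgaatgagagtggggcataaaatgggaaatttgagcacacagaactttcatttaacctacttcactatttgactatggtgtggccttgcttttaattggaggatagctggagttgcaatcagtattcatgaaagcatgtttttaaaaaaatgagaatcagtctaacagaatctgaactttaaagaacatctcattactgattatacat
FOXP2: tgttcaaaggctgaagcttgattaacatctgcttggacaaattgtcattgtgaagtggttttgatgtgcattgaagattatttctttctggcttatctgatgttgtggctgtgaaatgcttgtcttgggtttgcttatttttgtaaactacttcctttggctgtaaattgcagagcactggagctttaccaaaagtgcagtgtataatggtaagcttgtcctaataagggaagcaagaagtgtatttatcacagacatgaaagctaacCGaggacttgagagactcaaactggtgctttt
NHLH2: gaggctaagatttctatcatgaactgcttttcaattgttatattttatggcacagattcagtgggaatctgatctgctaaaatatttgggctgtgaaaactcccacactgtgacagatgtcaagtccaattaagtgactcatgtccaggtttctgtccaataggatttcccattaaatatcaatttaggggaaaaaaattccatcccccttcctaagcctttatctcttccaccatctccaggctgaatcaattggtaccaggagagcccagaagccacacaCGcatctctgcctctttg

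NKX2-1 has 21 CpG in its window, SOX2 20 and PRRX1 11, against 6 in ZNF608, 1 in FOXP2, 1 in NHLH2 and 0 in PDE3A. Among the 241 protein-coding genes that start in an A673-only region, 197 have a promoter in the RefSeq table, with a median of 21 CpG per 300 bases. The median was 19 for genes starting in regions of both lines, 22 over all 15101 promoters, and 6 for the 115 promoters in CHLA10-only regions. The promoters of A673-only regions thus held close to the usual CpG number, and those of the mirror set far fewer. On either strand, the doubled ETS core GGAAGGAA stood in 7 of the 197 promoters (3.55%, against 3.52% of all promoters). The HOX-like letters TTTATTA stood in 2 (1.02%, against 2.82%) and TTTACGA in 0 (against 0.536%). None of the printed promoters holds any of these 3 strings.

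The A673-only regions covered 24.4 Mb. Their length ran from 5001 to 56025 bp with a median of 6913 bp, below the 7958 bp of regions of both lines. By the authors' values, their median fold enrichment was 4.19 (3.32 to 10.7) and their median −log10 q 3.29 (2.01 to 16.6), against a median −log10 q of 3.71 for regions of both lines. A673 replicate 2 covered a median of 95.3% of a region. Just inside the length limit, the 898 members of 5000 to 6000 bp held CHLA10 H3K27ac in both libraries in 1.34% and a CHLA10 HOXD13 peak in 0.334%. Just outside it, the 1371 regions of 4000 to 5000 bp that otherwise met the rule held them in 1.31% and 0.292%. At the other edge, 1 of the 52 members within 1 kb of a CHLA10 H3K27me3 peak (1.92%) held CHLA10 H3K27ac in both libraries. Of the 41 replicated A673 regions with under 10% of their length in a CHLA10 H3K27me3 list, 4.88% did.

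The longest region, 56.0 kb at chr14:36478578-36534602, held the start of NKX2-1, the homeobox factor of thyroid, lung and forebrain. TBX20, a cardiac T-box factor, started in a region of 42.6 kb (chr7:35224381-35267008). PRRX1, the homeobox factor of limb and craniofacial mesenchyme, started in one of 36.5 kb (chr1:170653257-170689741). SLC13A4, a sulfate transporter, started in one of 35.7 kb. A region of 37.2 kb (chr1:214007267-214044446) held a boundary of PROX1, the homeobox factor of lymphatic endothelium. Another member, of 16.0 kb (chr1:213980608-213996628), held the other boundary, and the annotation used does not tell which is the start. Other long ones lay inside JAZF1 (46.6 kb), the HOX cofactor PBX3 (42.7 kb) and the calcium channel subunit CACNB4 (42.6 kb), and near GORAB (42.8 kb). The longer PROX1 region held no peak in any of the 14 lists of active marks and HOXD13, while the PBX3 and NKX2-1 regions held CHLA10 H3K27ac, H3K4me1 and H3K4me3 in all libraries. The NKX2-1 region held these marks in all A673 libraries too. The PBX3 region held A673 H3K4me1 and H3K4me3 in both libraries and A673 H3K27ac in replicate 1 only.

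The highest −log10 q of H3K27me3 in A673 replicate 1 was 16.6, in a region inside HSD17B12, an enzyme of fatty acid elongation (chr11:43634255-43644190). A second region in the same gene stood at 12.7. The region over HOXA11 and HOXA13, HOX genes of the distal limb, reached 10.8 (chr7:27179862-27212710), HPSE2 10.1 and NKX2-1 9.85. The HSD17B12 region also held H3K4me3 with −log10 q of 484 and 420 in A673 and 167 and 97.1 in CHLA10. So the strongest and longest members mix developmental gene starts with stretches inside or between genes.

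By position, 232 A673-only regions (7.90%) held the start of a protein-coding gene (or a boundary, where no start is listed), 1130 (38.5%) overlapped a gene without its start and 1574 (53.6%) lay between genes. Exons and introns were not told apart, since the annotation used gives gene boundaries only.

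CHLA10 H3K27ac peaks lay in more of the A673-only regions than of the regions of both lines. The CHLA10 H3K27ac libraries had a peak in 7.39% (interval 6.47 to 8.40) and 4.09% (3.40 to 4.87) of A673-only regions. In regions of both lines the shares were 0.735% (0.510 to 1.03) and 0.173% (0.0747 to 0.341). As means over libraries these are 5.74% ± 2.34 (SD, n = 2) and 0.454% ± 0.398 (SD, n = 2), and the library values of the sets do not overlap. Per Mb of region, the A673-only regions held 10.8 and 5.44 CHLA10 H3K27ac peaks against 0.765 and 0.175. The ratio was 14.1 in replicate 1 and 31.1 in replicate 2. This measure lessens the effect of region length, but a peak cut by a region's edge counts in full. At least 1 CHLA10 H3K27ac library had a peak in 251 A673-only regions, 8.55%, against a background of 3.64% of all 8814 long A673 regions. The CHLA10-only regions, which carry H3K27me3 in CHLA10, had a peak in 0.249% and 0.0277%.

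The sets differ by rule in H3K27me3 in CHLA10, which takes the same lysine as H3K27ac, so this contrast is not independent of the rule. Against the genome, the A673-only regions were not rich in CHLA10 H3K27ac: their peaks per Mb were 0.737 and 0.607 times those of all 100-kb bins with a peak. In the regions of both lines that ratio was 0.0522 and 0.0195. CHLA10 H3K27ac was thus below the genome level in A673-only regions, and far lower where H3K27me3 was present in CHLA10.

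The A673 H3K27ac libraries showed no such contrast. They had a peak in 6.98% and 10.6% of A673-only regions, or 8.80% ± 2.58 (SD, n = 2), and in 8.87% and 12.4% of regions of both lines, with peaks per Mb at 0.920 and 0.992 times. The A673-only regions held A673 H3K27ac peaks at 0.608 and 0.778 times the genome's density while carrying H3K27me3 there. The low overlap between the A673 H3K27ac libraries stands beside this value, and its part was not tested.

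**Figure D1:**
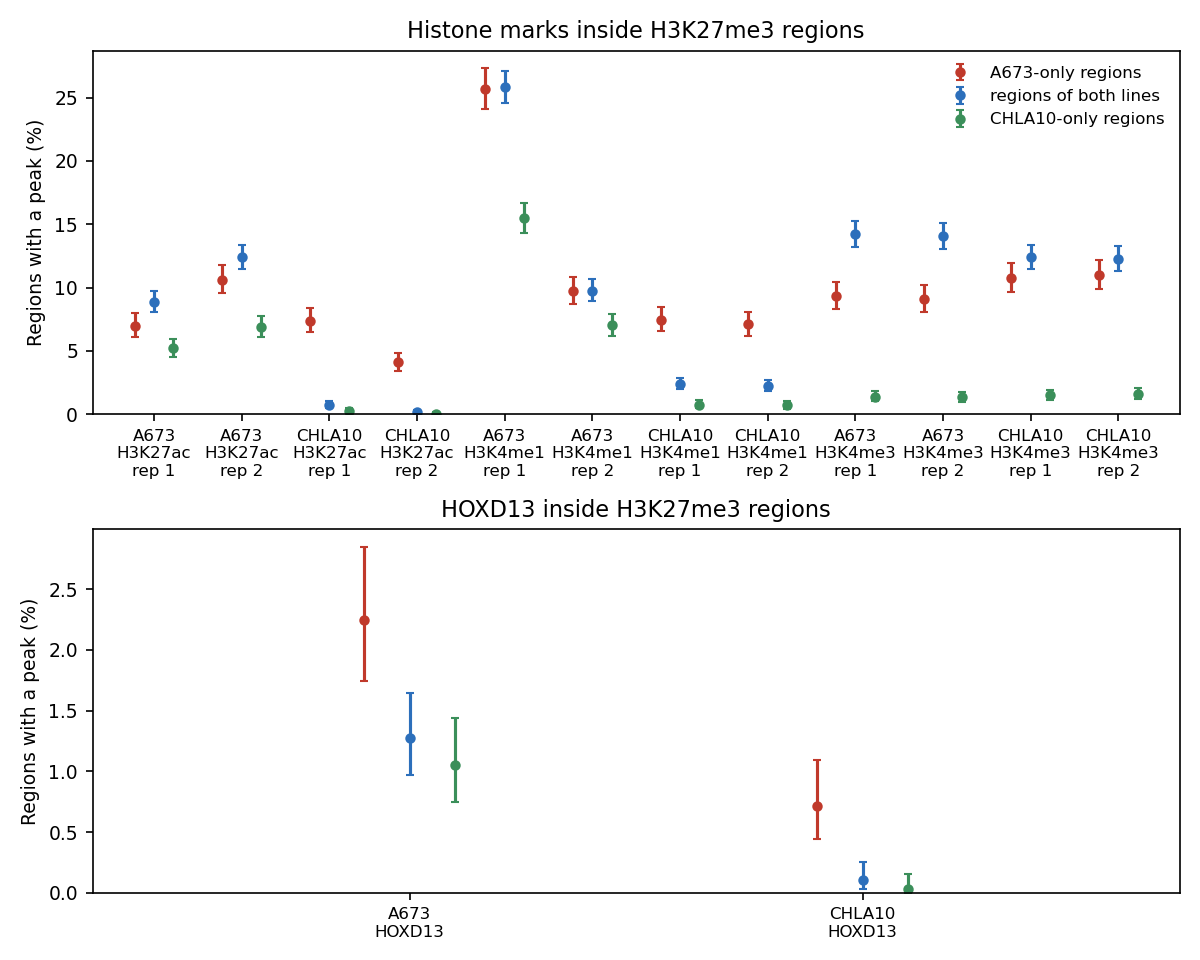
Share of regions with at least 1 peak (y axis, percent of regions) in each library (x axis), for A673-only regions, regions of both lines and CHLA10-only regions, with H3K27ac, H3K4me1 and H3K4me3 above and HOXD13 below; error bars are exact 95% binomial intervals. CHLA10 H3K27ac stands at 7.39% and 4.09% in A673-only regions and under 1.03% elsewhere, while the A673 libraries of the same mark lie at similar heights in A673-only regions and regions of both lines.

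The share was higher in longer regions. CHLA10 H3K27ac had a peak in 4.95% and 2.80% of A673-only regions of 5000 to 7500 bp, in 6.96% and 3.25% of those up to 10000 bp, in 13.3% and 6.84% of those up to 20000 bp, and in 27.6% and 22.4% of the 76 longer ones. In regions of both lines it ran from 0.291% and 0.0485% in the shortest class to 3.69% and 2.21% in the longest. Longer regions have more room for a peak, yet the A673-only share was the higher in each class and both libraries.

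Around the region centre, CHLA10 H3K27ac was lower than in the flanks. In the central 4 kb, 2.08% and 1.24% of A673-only regions had a peak per 2-kb bin, against 3.18% and 2.12% at 40 to 50 kb from the centre, a ratio of 0.652 and 0.587. For regions of both lines that ratio was 0.0743 and 0.0157. The A673 H3K27ac libraries had ratios of 0.814 and 0.958 in A673-only regions. H3K4me3 did the reverse and peaked at the centre of A673-only regions, 2.72 and 2.77 times the flank in A673 and 2.52 and 2.53 times in CHLA10.

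**Figure D2:**
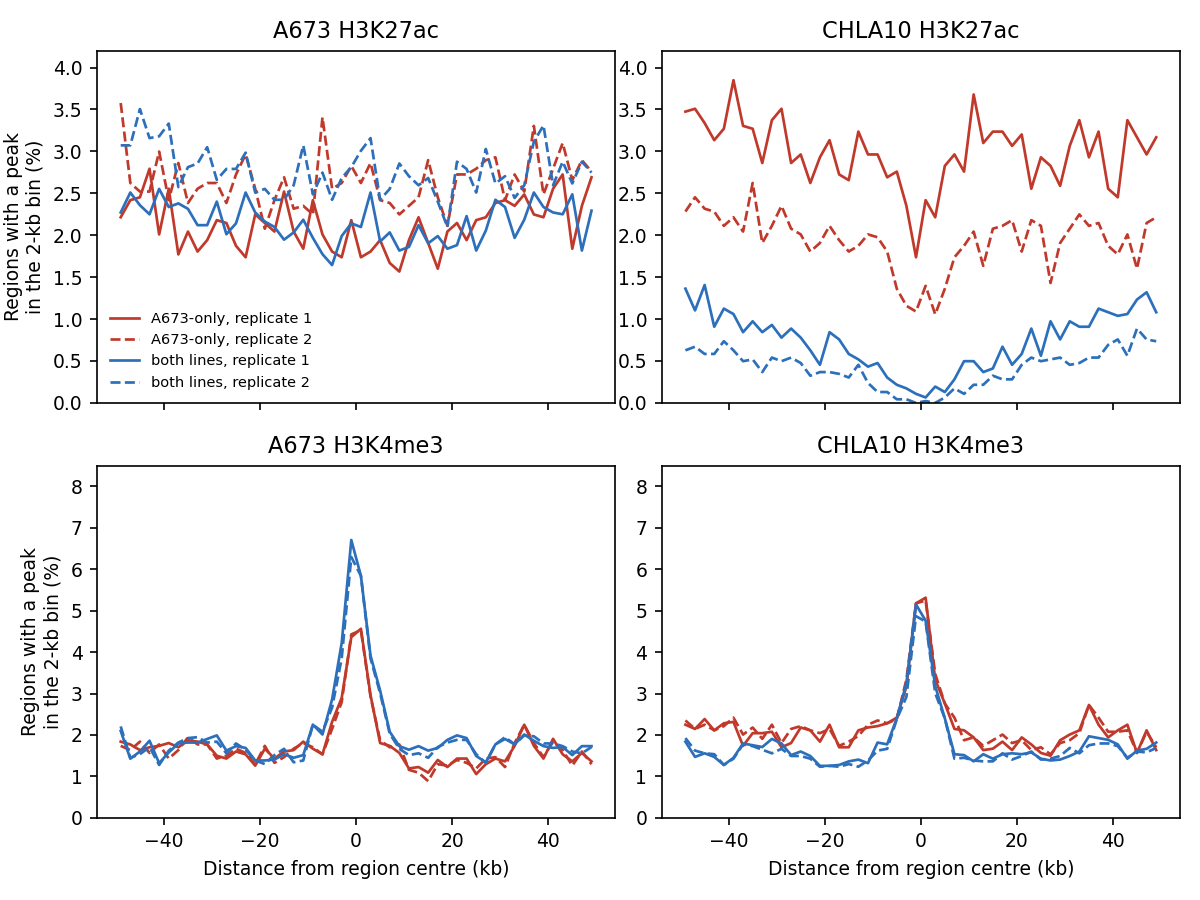
Percent of regions with a peak in each 2-kb bin (y axis) against distance from the region centre up to 50 kb on each side (x axis, kb), for H3K27ac and H3K4me3 in each line, with replicate 1 solid and replicate 2 dashed. CHLA10 H3K27ac falls only to 0.652 and 0.587 of its flank level in A673-only regions and to 0.0743 and 0.0157 in regions of both lines, and H3K4me3 rises at the centre of both.

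CHLA10 H3K4me1 lay in 7.46% (6.53 to 8.47) and 7.08% (6.18 to 8.07) of A673-only regions and in 2.40% (1.98 to 2.88) and 2.21% (1.80 to 2.67) of regions of both lines. Per Mb the ratio was 3.99 and 3.94. Against the genome, the A673-only regions held CHLA10 H3K4me1 at 1.14 and 1.19 times the density of peaks. As a share of bases this was 0.379% and 0.422% against 0.357% and 0.419%. A673 H3K4me1 lay in 25.7% and 9.74% of A673-only regions and in 25.8% and 9.76% of regions of both lines, so replicate 1 was the higher in both sets and replicate 2 too was above both CHLA10 libraries in A673-only regions. In peaks per Mb, A673 H3K4me1 stood in A673-only regions at 1.09 and 1.14 times its density in regions of both lines. At least 1 CHLA10 library had H3K4me1 in 360 A673-only regions, 12.3%, against a background of 7.28%, and both had it in 67, 2.28%, against 1.04%. In 28 of those no A673 library had it (0.954%, background 0.397%). Both A673 libraries had H3K4me1 in 220 (7.49%, background 7.31%).

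CHLA10 H3K4me3 was about as frequent in A673-only regions as in regions of both lines, with a peak in 10.8% and 10.97% against 12.4% and 12.3%. Per Mb the ratios were 0.940 and 0.979, and their mean passed 1 under other settings (1.007 from A673 H3K27me3 replicate 2 as the base list). Both CHLA10 libraries had it in 283 A673-only regions, 9.64%, against 9.9% of all long A673 regions, which is the background share. In 207 of them neither CHLA10 library had H3K27ac (7.05%, background 8.79%). What differed was the width: CHLA10 H3K4me3 covered a mean of 1478 and 1499 bp per peak inside A673-only regions and 881 and 891 bp inside regions of both lines. As a share of bases this was 2.02% and 2.05% against 1.28% and 1.24%. In A673 the covered length per peak was 1551 and 1488 bp against 1328 and 1167 bp.

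A673 H3K4me3 lay in 9.33% and 9.09% of A673-only regions and in 14.2% and 14.1% of regions of both lines. Overlap of at least 1 bp between separate libraries does not place both marks on the same nucleosomes, so bivalency itself was not tested. Both A673 libraries had it in 256 A673-only regions, 8.72%, against a background of 11%. All 4 libraries had H3K4me3 in 227 regions (7.73%, background 8.2%). It was in both libraries of CHLA10 and absent from those of A673 in 42 regions (1.43%, background 1.24%). The opposite held in 20 (0.681%, background 1.6%), against 110 of the regions of both lines (2.38%). Most H3K4me3 in A673-only regions was therefore shared by the lines.

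Most A673-only regions carried no active mark in CHLA10. No CHLA10 peak of H3K27ac, H3K4me1, H3K4me3 or HOXD13 lay in 2225 of them, 75.8% (74.2 to 77.3), against a background of 80.6% and 82.8% of regions of both lines. A further view by distance put the nearest CHLA10 peak of any list at a median of 5.90 kb, and 69 regions lay over 100 kb from any. A listed active mark of CHLA10 was thus found in a minority of these regions.

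Both CHLA10 libraries had H3K27ac in 86 A673-only regions, 2.93% (2.35 to 3.60), against a background of 1.11% of all long A673 regions and 5 of the regions of both lines (0.108%). Of the 86, 59 had no A673 H3K27ac peak in either library, 2.01% (1.53 to 2.58), against a background of 0.749%. Without CHLA10 H3K27ac replicate 2 this share was 5.14%. CHLA10 H3K27ac came with H3K4me3 in both libraries in 32 regions (1.09%, background 0.431%) and without any CHLA10 H3K4me3 peak in 42 (1.43%, background 0.522%). In the other direction, both A673 libraries had H3K27ac in 55 A673-only regions (1.87%, background 2.31%). Of these, 44 had none in CHLA10 (1.499%, background 2.16%), 16 had A673 H3K4me3 in both libraries (0.545%, background 0.806%) and 37 had it in neither (1.26%, background 1.35%).

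The PRRX1 region was the longest of the 10 named from the 59. In it CHLA10 H3K27ac had −log10 q of 9.79 and 10.3 and A673 had no H3K27ac peak. No CHLA10 H3K27ac peak lay within 1 kb of the PRRX1 start, so these peaks were elsewhere in the region. H3K4me3 stood at 5.79 and 15.4 in A673 and 71.5 and 71.9 in CHLA10, so both CHLA10 libraries were above both A673 libraries, and the nearest CHLA10 H3K27me3 peak lay 922.8 kb away. PRRX1 is also on the list of genes known as repressed by EWS-FLI1. A −log10 q depends on depth, which is unknown, so its size is set between libraries only as a description.

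MEIS2, a homeobox cofactor of HOX proteins, held a region inside the gene (chr15:37101299-37110515) with CHLA10 H3K27ac at 10.8 and 9.83. H3K4me3 there was 231 and 200 in A673 and 106 and 87.6 in CHLA10, so here A673 had the higher values. SLC6A17, a vesicular transporter of neurons, had the highest rank of the 59, with CHLA10 H3K27ac at 16.2 and 10.1 and no peak of any A673 active mark or HOXD13 (chr1:110180792-110187325). SLIT3, an axon guidance ligand, had 22.2 and 8.61 inside the gene (chr5:169247210-169257223) and likewise no A673 peak.

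MITF, the regulator of melanocytes, had CHLA10 H3K27ac at 19.4 and 9.54 inside the gene (chr3:69766699-69773584), with A673 H3K4me1 at 11.5 and 8.01. DGKI, a diacylglycerol kinase, had 16.3 and 8.28, and SLC25A21, a mitochondrial carrier, 8.23 and 8.25. Of the regions between genes, the one near GFRA1, a receptor for GDNF, had 10.1 and 9.18 at 17.39 kb from the gene. The one near MMUT, a mitochondrial mutase, had 8.69 and 9.80, and one 260.2 kb from the olfactory receptor gene OR4E1 had 9.21 and 18.4. Among these 10 regions only PRRX1 had its gene start inside.

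**Figure D3:**
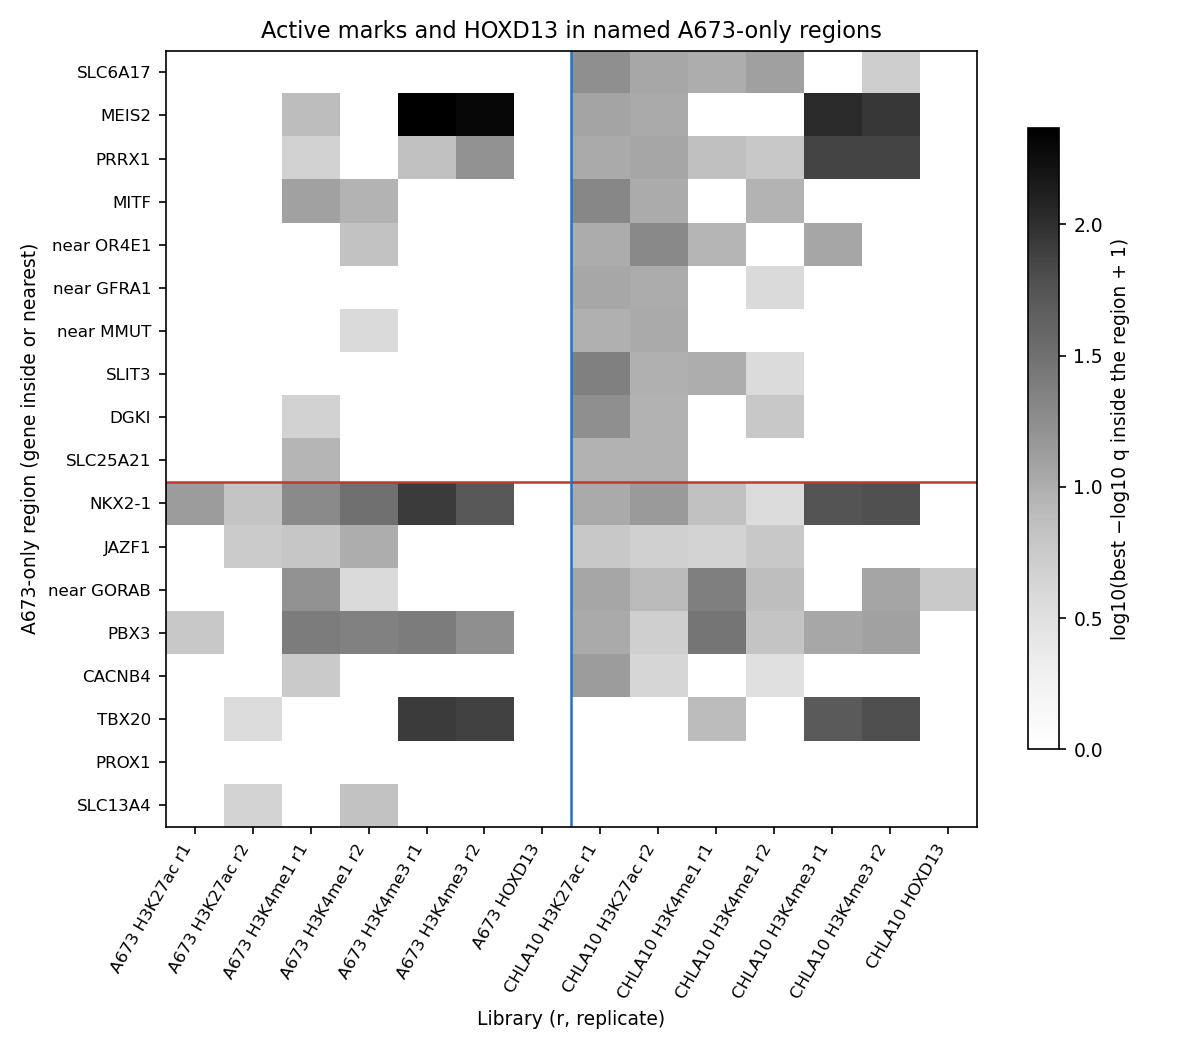
Heat map of the best peak inside each named region (rows) in each of 14 libraries (columns), coloured by log10 of the −log10 q plus 1, with 0 where no peak lies inside. The 10 regions above the red line have CHLA10 H3K27ac in both libraries and none in A673, and the 8 below are other long regions, of which the row PROX1 (the 37.2-kb region at a boundary of the gene) is empty in every column.

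The 241 genes that start in an A673-only region were 1.26% of 19126 protein-coding genes. The 197 with a listed RefSeq start were placed by the first one listed, and the others by either gene boundary. Without A673 H3K27me3 replicate 1 the count was 368. Within 1 kb of the start, H3K4me3 was present in all 4 libraries at 146 (60.6%, against 61.4% of all genes) and in none at 69 (28.6%, against 30.9%). At genes starting in regions of both lines it was present in all 4 at 275 of 839 (32.8%). By line, both libraries had it at 155 in CHLA10 (64.3%, against 64% of all genes) and at 154 in A673 (63.9%, against 64.4%). With listed starts alone, the count over all 4 libraries was 118 of 197 (59.9%). So the genes of A673-only regions carried H3K4me3 at about the share of all genes, and those of regions of both lines at a lower share, a difference that was not tested.

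CHLA10 H3K27ac was rare at these starts. Both CHLA10 libraries had it at 6 of 241 (2.49%), against 16.4% of all genes, and at 5 of the 839 (0.596%). At 5 of the 6, all but PDE3A, both CHLA10 libraries had H3K4me3 too (2.07%, against 15.8%). A673 H3K27ac was at 0 of 241 starts in both libraries, against 5.51% of all genes. H3K4me1 was in both libraries at 0 of 241 in CHLA10 (0.58% of all genes) and at 3 in A673 (1.24%, against 6.31%). The 6 were named after their values were seen. IGFBP7, a secreted binding protein of the IGF family placed by its gene boundary, had CHLA10 −log10 q of 7.88 and 7.06. ZNF608, a zinc finger gene, had 11.2 and 3.17, and GPR85, an orphan receptor of the brain, 7.15 and 2.18. DPY19L2, a protein of sperm head formation, had 5.30 and 7.67, and TRPC4, a cation channel, 2.46 and 3.18 beside 4.61 in A673 replicate 2. PDE3A, a phosphodiesterase of cyclic nucleotides, had 6.01 and 6.23 with no H3K4me3 peak at the start used in any library. The window printed for that start is also the one without a CpG. Marks and CpG at any other start of PDE3A were not read, so these values do not describe the gene as a whole.

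At 6 starts H3K4me3 was in both libraries of CHLA10 and in neither of A673 (2.49%, against 1.92% of all genes). These were FOXP2, a forkhead factor of brain development, with −log10 q of 35.2 and 21.5, the carboxypeptidase-like gene CPXM1 with 44.9 and 30.7, the phospholipase receptor PLA2R1 with 14.1 and 8.41, the kinase DGKB with 6.58 and 7.003, the synaptotagmin SYT16 with 6.56 and 7.43, and the neuronal RNA-binding gene ELAVL4 with 4.25 and 4.60. At another 6 it was in both libraries of A673 and in neither of CHLA10 (2.49%, against 1.96%). These were NHLH2, a neuronal bHLH factor, with 71.3 and 46.3, the melatonin receptor MTNR1A with 38.7 and 61.2, SHISA2, a modulator of FGF and WNT receptors, with 47.4 and 39.1, ADGRV1, an adhesion receptor of hair cells, with 39.5 and 39.8, the kinase DCLK3 with 13.6 and 10.3, and the transporter SLC22A15 with 6.97 and 8.97. Starts with H3K4me3 in 1 line were thus equal in number for the lines, and both near the share over all genes. These calls hold for the start used, not for every start of a gene. A member with an A673 HOXD13 peak at chr7:114081858-114082077 overlapped FOXP2 upstream of the start used. That start therefore lies inside the gene.

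Developmental regulators started in A673-only regions, and in larger numbers in regions of both lines. The sets differ in size, with 241 genes against 839, so these counts do not rank them. Of 118 homeobox genes outside the HOX clusters, 9 (7.63%) started in an A673-only region and 35 (29.7%) in a region of both lines, against 1.26% and 4.39% of all genes. The highest by H3K27me3 −log10 q were NKX2-1, MEOX2, SIX6, PROX1 and PRRX1. Of 92 T-box, GATA, FOX and zinc finger lineage genes 6 (6.52%) did, TBX2, TBX20, OSR1, FOXC2 and FOXP2 among them, against 25 in regions of both lines. Of 41 HOX genes 2 did, HOXA11 and HOXA13, against 7, of 59 bHLH genes 3 (NHLH2, SIM1 and HEY2), against 23, and of 26 PAX and SOX genes 1 (SOX2), against 7.

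Signalling, axon guidance and neural genes gave shares from 6.38% to 7.94%. WNT and R-spondin genes had 4 of 59, the ligands WNT2 and WNT16, the secreted antagonist SFRP2 and the agonist RSPO3, against 11 in regions of both lines. Hedgehog, Notch and FGF genes had 3 of 47, the ligands FGF5 and DHH and the Hedgehog antagonist HHIP, against 10. Axon guidance genes had 5 of 63, the semaphorins SEMA5B, SEMA3E and SEMA6A, the ligand SLIT3 and the receptor EPHA7, against 6. Neural and neural crest genes had 3 of 39 (NLGN1, ELAVL4 and MITF), against 5.

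Of 60 mesenchymal and matrix genes 2 started in an A673-only region, PRRX1 and ZEB1, a repressor of epithelial genes, against 3 in regions of both lines. Genes known as repressed by EWS-FLI1 had 2 of 32, IGFBP3 and PRRX1, against 2, and genes known as activated by it 1 of 32, SOX2, against 0. Epithelial genes had 1 of 35, the desmosomal DSP, against 2. Muscle genes had 0 of 27, against 4, and haematopoietic and endothelial genes 0 of 35, against 2. Neither the 25 CDK inhibitor and Polycomb genes nor the 28 housekeeping genes had any in either set. No listed gene had CHLA10 H3K27ac in both libraries at its start.

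**Figure D4:**
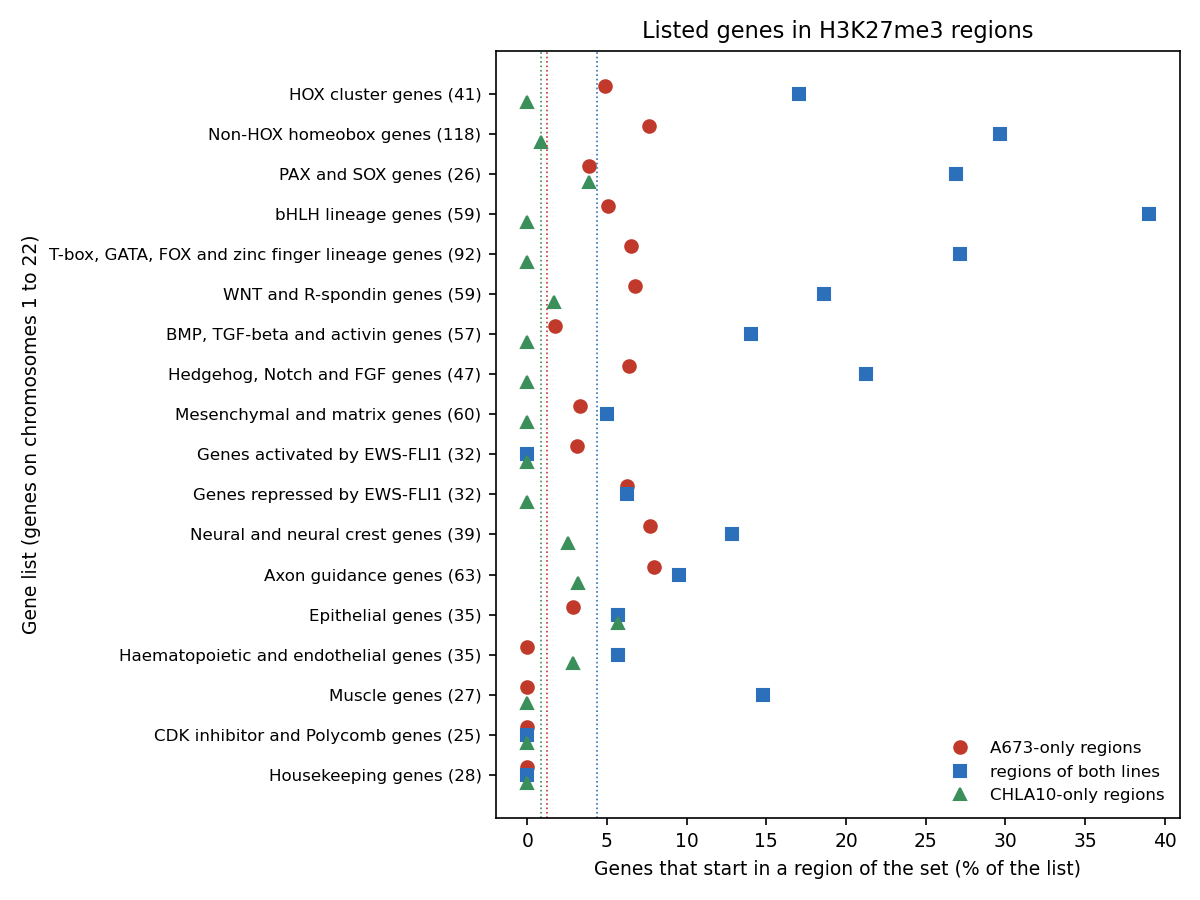
Percent of each list's genes that start in A673-only regions, regions of both lines and CHLA10-only regions (x axis), by gene list (y axis), with dotted lines at the share of all protein-coding genes. Homeobox genes outside the HOX clusters reach 7.63% in A673-only regions and 29.7% in regions of both lines.

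At their starts, the listed genes differed in H3K4me3 in both directions. PRRX1 had no peak in A673 replicate 1 and −log10 q of 7.77 in replicate 2, against 71.5 and 71.9 in CHLA10. WNT2 had 11.5 and 4.64 against 68.8 and 62.3 and FGF5 20.9 and 11.7 against 92.3 and 67.5. MEOX2, a homeobox factor of somites, had 3.14 and 5.14 against 18.8 and 22.5. In each of these both CHLA10 values were above both A673 values.

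SOX2, a pluripotency and neural factor, had 199 and 173 in A673 against 39.6 and 44.3 in CHLA10. EPHA7 had 279 and 252 against 56.0 and 54.3, SEMA6A 250 and 205 against 72.7 and 66.0, and FOXC2, a forkhead factor of mesenchyme, placed like SEMA6A by a gene boundary, 95.1 and 93.6 against 17.0 and 18.2. In each of these both A673 values were the higher, in the line that carried the H3K27me3 region. The SOX2 region was weak, with H3K27me3 −log10 q of 2.38 (set minimum 2.01), and a CHLA10 H3K27me3 peak lay 12.3 kb away. For EPHA7 the region's −log10 q was 3.17 and that distance 3.54 kb. For SEMA6A they were 4.22 and 519.3 kb, and for FOXC2 4.55 and 41.1 kb. NKX2-1 with 80.9 and 52.4 against 55.7 and 58.6, HOXA13 with 20.9 and 72.9 against 39.5 and 40.4, and HOXA11 with 33.7 and 30.5 against 46.0 and 23.9 had overlapping values.

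HOXD13 peaks lay in few A673-only regions. The A673 HOXD13 list had 71 of its 7047 peaks in 66 of them (2.25%, interval 1.74 to 2.85), against 59 regions of both lines (1.28%, 0.973 to 1.64) and a background of 1.59%. The CHLA10 list had 22 of its 2060 peaks in 21 of them (0.715%, 0.443 to 1.09), against 5 regions of both lines (0.108%, 0.0351 to 0.252) and a background of 0.363%. Per Mb the ratio of A673-only regions to regions of both lines was 2.18 for A673 and 8.24 for CHLA10. Over the settings tried, the CHLA10 ratio, which rests on few peaks, ran from 4.439 to 14.45. Against the genome it was 1.09 and 1.15, so HOXD13 stood at about the genome's density in A673-only regions. With 1 library per line there is no replicate check. Starting from A673 H3K27me3 replicate 2 alone gave 42 regions with a CHLA10 HOXD13 peak.

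HOXD13 peaks of the lines overlapped only near SLC22A16, a carnitine transporter gene 51.9 kb away, in a region at chr6:110528509-110534918. HOXD13 there had −log10 q of 125 in A673 and 102 in CHLA10, and no H3K27ac or H3K4me3 peak of either line lay in the region. Both lines also had HOXD13 in the regions near AGMO (30.1 and 49.4) and near UBE2E3 (24.3 and 21.98), but at positions that did not overlap. Regions holding HOXD13 of both lines, overlapping or not, were 3 in all, 0.102% of A673-only regions, against a background of 0.0681%.

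In CHLA10, the regions of GABRA2, a GABA receptor subunit (83.6), NLGN1, a synaptic adhesion protein (74.6), LRRC9 (72.6), the relaxin genes RLN2 and RLN1 (61.3), OSBPL10 (44.9) and RTN1 (43.9) held HOXD13. Lower values were found in PDE4D (28.6), near ACVR2A (24.0), in ASZ1 (23.3), near RAB4A (22.2), in DENND1A (16.4), MYO3B (12.8), JAZF1 (9.24) and KCNMA1 (9.24), and near GORAB (4.62). GABRA2 was the member of this group with its gene start inside the region. H3K4me3 in that region was 35.3 and 44.5 in A673 and 92.4 and 56.2 in CHLA10.

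In A673, the strongest HOXD13 peak was near DLGAP1 (136), followed by SLC22A16, NKAIN2 (85.0), a region near the potassium channel gene KCNC2 (75.9), one near ZNF330 (73.8), CPA6 (61.8), one near RGS13 (60.05), CD8B2 (52.1), one near MPDZ (50.5) and one near LOC124901229 (48.2). No CHLA10 active mark lay in the DLGAP1, NKAIN2, KCNC2 or ZNF330 regions. A CHLA10 H3K27me3 peak lay 1.805 kb from the DLGAP1 region. For the NKAIN2, KCNC2 and ZNF330 regions that distance was 1849.9, 375.4 and 1460.8 kb. The A673 peaks in A673-only regions had a median −log10 q of 22.6, against 14.4 over the whole list, and the CHLA10 peaks 26.3 against 26.3.

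A minority of these regions held HOXD13 together with CHLA10 H3K27ac. In 10 A673-only regions an A673 HOXD13 peak and CHLA10 H3K27ac in both libraries occurred together (0.341%, background 0.125%), and in 0 of the 4623 regions of both lines, which allows a share of up to 0.0798%. They were 15.2% of the 66 A673-only regions with A673 HOXD13, while CHLA10 H3K27ac in both libraries was in 2.93% of all A673-only regions. The 66 were also long, with a median of 11055 bp. A CHLA10 HOXD13 peak and CHLA10 H3K27ac in both libraries occurred together in 4, those of RTN1 (H3K27ac 6.12 and 10.5), AGMO (7.72 and 2.26), ASZ1 (2.38 and 5.46) and GORAB (10.5 and 7.21), with a background of 0.0567%. On the peak itself, 5 of the 71 A673 peaks (7.04%) overlapped CHLA10 H3K27ac in both libraries, against 17.6% of all A673 HOXD13 peaks. Of the 22 CHLA10 peaks 1 did (4.55%), that of RTN1, against 36.2% of all CHLA10 HOXD13 peaks. The CD8B2 region was one of the 5, with CHLA10 H3K27ac at 6.05 and 7.37.

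The A673-only regions lay at a wide range of distances from CHLA10 H3K27me3, with no reference distance to set them against. The median distance to the nearest CHLA10 H3K27me3 peak was 99.6 kb, 482 (16.4%) lay within 10 kb, 1465 (49.9%) beyond 100 kb and 320 (10.9%) beyond 1000 kb. CHLA10 H3K27ac in both libraries was found in 6 of the 482 (1.24%), in 23 of 989 at 10 to 100 kb (2.33%), in 47 of 1145 at 100 to 1000 kb (4.10%) and in 10 of the 320 (3.13%). The share was lowest within 10 kb of a CHLA10 domain, a difference that was not tested.

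Chromosomes 13 and 4 held an unusual share. On chromosome 13, 139 of 203 replicated A673 regions (68.5%) were A673-only, and on chromosome 4, 197 of 310 (63.5%), while the share was 10.3% on chromosome 20 (23 of 223). On chromosome 13 the CHLA10 lists held 0.250 times as many H3K27me3 peaks as the A673 lists, against a median of 1.36 over chromosomes. For H3K4me3 the ratio was 1.06 (median 1.19) and for H3K27ac 0.568 (median 0.738). On chromosome 4 the ratios were 1.19, 1.37 and 1.32. Without both chromosomes 2600 regions remained, 32.1% of those replicated. Copy number was not measured, and its part was not tested.

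**Figure D5:**
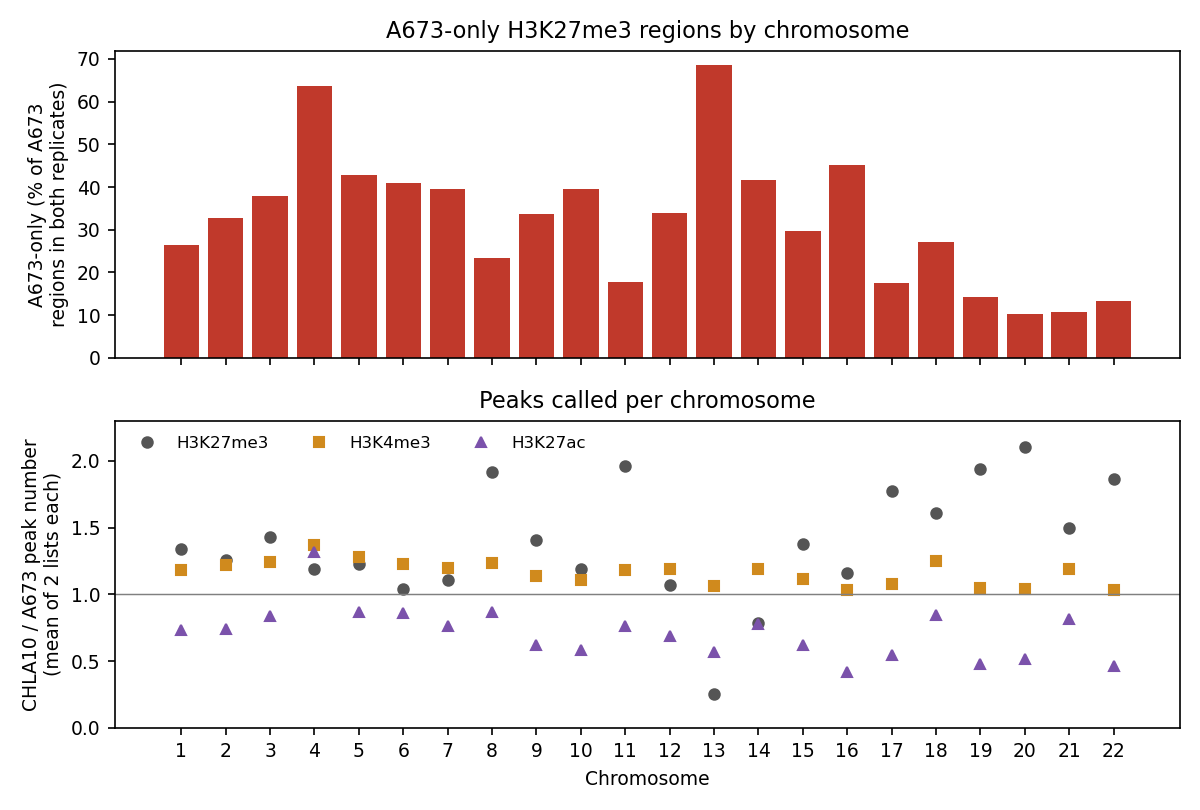
Upper bars give the A673-only regions as a percent of the A673 regions found in both replicates on each chromosome (x axis), and the lower points the CHLA10 to A673 ratio of peak numbers for H3K27me3, H3K4me3 and H3K27ac. Chromosomes 13 (68.5%) and 4 (63.5%) are highest, and chromosome 13 has the low H3K27me3 ratio of 0.250.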

How the data were processed

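The members and gene lists were chosen with earlier results of these data known. The authors deposited 1 peak list per library, called per sample. The submitters' processing notes name the build hg38 and the tools Bowtie2, SEACR 1.2, MACS2 and bedtools, with no role given. Each deposited list gives a score, a fold enrichment and −log10 q per peak, and these are the authors' values. The criterion by which peaks were kept is not stated, and the shortest deposited H3K27me3 peak is 2000 bp.

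Peaks on chromosomes 1 to 22 were intersected with Python 3.11.15, numpy 2.4.6, pandas 2.3.3 and scipy 1.17.1. A region held a mark when a peak overlapped it by at least 1 bp. Background shares are over all 8814 A673 replicate 1 regions of at least 5000 bp, or over all 19126 genes for starts. Genome density is per Mb of 100-kb bins with a peak (2636 Mb). Gene starts, boundaries and promoters came from RefSeq, and 4025 genes without a listed start were counted by either boundary. Where a gene had several listed starts, the first was used. The counting was tested on simulated data.

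Regions were named by rule: the 10 longest, the 10 of highest −log10 q, the 10 with CHLA10 H3K27ac in both libraries and A673 in neither of highest lower −log10 q, each with a CHLA10 HOXD13 peak, the 10 of highest A673 HOXD13 −log10 q, and at most 5 genes per list. Some regions and genes that the rule names are not reported here. The alternatives changed the length limit, overlap, base replicate, peak strength, distance, merging, gene rule and libraries used. Coordinates are counted from 1. No sequence of the regions themselves was used.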

Additional observations from a re-analysis of the deposited data

Results flagged for a closer look

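By the share of regions with a peak, the gap between A673-only regions and regions of both lines had opposite signs in the lines. This held for H3K27ac and H3K4me1 in each library. These shares are not corrected for length, and regions of both lines were longer. The differences were not tested, and the sets themselves are defined by H3K27me3 in CHLA10. For H3K27ac, the share of A673-only regions with a peak minus that of regions of both lines was -1.89 and -1.79 percentage points in the A673 libraries and 6.66 and 3.91 in the CHLA10 libraries. For H3K4me1 it was -0.0905 and -0.0144 in A673, within the intervals of the shares, and 5.06 and 4.88 in CHLA10. In peaks per Mb, the ratio for A673 H3K4me1 was 1.09 and 1.14, the same direction as in CHLA10 (3.99 and 3.94). For A673 H3K27ac that ratio was 0.920 and 0.992. The opposite signs for H3K4me1 were thus not seen per Mb.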

How the results depend on the processing

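No paired analysis was possible because the results come from no test. Of 221 alternatives over 29 settings, 150 kept a count within 1.5 times or a share or ratio within its spread (1 SD between libraries, or a 95% interval). Counts and shares have no direction to turn. The ratio of peaks per Mb between A673-only regions and regions of both lines has one, and it crossed 1 for CHLA10 H3K4me3 alone. Beside the 2936 regions, shares below are means over libraries.
At a minimum of 10000 bp, 573 regions remained. A673 H3K27ac was 15.45%, H3K4me1 31.76%, H3K4me3 16.84%, CHLA10 H3K27ac 12.04%, H3K4me1 14.4%, H3K4me3 20.16%, CHLA10 H3K27ac with none in A673 3.665%, HOXD13 regions 38 (A673) and 7 (CHLA10), and genes 94. At 3000 bp, 6485 regions gave A673 H3K4me3 6.777%, CHLA10 H3K4me1 4.78%, H3K4me3 8.072%, CHLA10 H3K27ac with none in A673 1.372% and 363 genes. The stronger 50% of A673 H3K27me3 peaks gave 1849 regions, A673 H3K4me3 12.9%, CHLA10 H3K4me1 8.87% and H3K4me3 14.85%. The stronger 50% of mark and HOXD13 peaks gave A673 H3K27ac 3.116%, H3K4me3 3.048%, CHLA10 H3K27ac 2.163%, H3K4me1 3.406%, H3K4me3 5.194%, CHLA10 H3K27ac with none in A673 0.8515%, and 39 and 11 HOXD13 regions.
From replicate 2 as base (4312 regions), A673 H3K4me3 was 8.569%, CHLA10 H3K4me1 7.618%, H3K4me3 10.4%, with 38 CHLA10 HOXD13 regions. For A673 and CHLA10, H3K4me3 was 9.418% and 11.15% with 50% of a region covered by replicate 2, 9.984% and 11.51% beyond 10 kb from CHLA10 H3K27me3 (CHLA10 H3K4me1 7.539%), 11.15% and 13.26% after merging within 10 kb (CHLA10 H3K4me1 9.269%), and 7.851% and 9.52% with 50% of the mark's peak inside. By gene body, 705 genes counted.
Leaving out 1 library gave 3056 to 4863 regions, the upper without A673 H3K27me3 replicate 1. A673 H3K27ac ran from 6.982% to 10.63%, H3K4me1 from 9.741% to 25.72%, H3K4me3 from 7.824% to 9.516%, CHLA10 H3K27ac from 4.087% to 7.391%, H3K4me1 from 6.644% to 7.459%, H3K4me3 from 9.655% to 10.97%, CHLA10 H3K27ac with none in A673 from 1.717% to 5.143%, HOXD13 regions from 66 to 90 (A673) and 22 to 42 (CHLA10), and genes from 245 to 368. The ratios were computed under settings chosen after seeing the data. For CHLA10 H3K27ac the ratio of 22.63 ran from 14.12 to 31.13. For CHLA10 H3K4me3 it went from 0.9595 to 1.007 (replicate 2 as base), 1.039 (3000 bp), 1.029 (stronger 50% of H3K27me3) and 0.9942 (without chromosomes 4 and 13), and the cause was not tested. In the same order CHLA10 H3K4me1, at 3.965, gave 4.495, 3.985, 4.226 and 4.137, and 4.026 at 10000 bp. A673 H3K4me1, at 1.116, gave 1.169 from replicate 2, 1.146 at 10000 bp and 1.178 for the stronger 50%, and A673 H3K4me3, at 0.7217, gave 0.7496 from replicate 2, 0.7742 at 3000 bp and 0.7986 for the stronger 50%. A673 H3K27ac stayed between 0.9198 and 0.9925, A673 HOXD13 between 1.875 and 2.645 and CHLA10 HOXD13 between 4.439 and 14.45. Depth is unknown, so an unlisted peak is not an absent mark.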

Other observations

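Some A673-only regions lay close together along a chromosome. No chain count for other H3K27me3 regions is set beside theirs, so it is not shown to be particular to this set. Joined over gaps of at most 100 kb, a distance chosen after the values were seen, they formed 1400 chains. Of these, 832 held 1 region and 121 held at least 5, with 966 regions (32.9%). The longest chain, of 27 regions over 850.3 kb, spanned PCLO, a scaffold of the presynapse, and the semaphorin gene SEMA3E, and no CHLA10 H3K27ac peak lay in its regions. Chains of 22 regions lay near LOC107983989 and near the cadherin gene FAT1. A chain of 21 over SLIT3 held 6 and 2 CHLA10 H3K27ac peaks in replicates 1 and 2, as did the chain of 14 at NKX2-1. A673 H3K27ac peaks numbered 1 and 0 in the SLIT3 chain and 4 and 3 in the NKX2-1 chain. In the chain of PCLO and SEMA3E they numbered 0 and 4. Chains of 18, 16 and 15 lay at DACH1, a nuclear factor of eye and limb development, at PNLIPRP3 and at ADARB2.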
